A study of Danio rerio with 12 samples.

Results

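The genes described here encode the kidney's inorganic ion cotransporters and exchangers, the solute carrier families that move sodium, chloride, bicarbonate, phosphate, sulfate and calcium across tubule cell membranes. They were chosen by name alone, as every gene symbol in the count tables that starts with slc4a, slc8a, slc9a, slc12a, slc13a, slc20a, slc26a or slc34a, leaving out slc4a1a, the anion exchanger of red blood cells. This gave 48 of 14781 genes. Transcripts were sequenced from whole kidneys of adult male zebrafish of strain EK, aged 4 to 12 months, in 12 libraries. All fish, the wild types included, had undergone cardiomyocyte ablation after 17 h in 0.5 to 0.7 µM tamoxifen, and their kidneys were taken 7 days later. The 4 groups of 3 libraries were wild types and homozygous knockouts of cebpd, a C/EBP transcription factor gene (cebpd WT and cebpd KO), and, in a second pair labelled in the same way, wild types and homozygous knockouts for CEN (CEN WT and CEN KO). Per its title, the study looked for kidney genes that depend on Cebpd while the heart regenerates. What CEN stands for is not in the labels, nor is which part of cebpd was altered, which transgene made the heart cells sensitive to tamoxifen, nor whether a library holds 1 fish. The p-values therefore measure the spread between these libraries, which may be technical, and no uninjured fish stand beside them.

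In the nephron, the tubule recovers salt, phosphate, sulfate and bicarbonate from the filtrate by coupling them to the sodium gradient that the sodium pump maintains. In mammals the proximal tubule uses the sodium-proton exchanger NHE3 (SLC9A3), the sodium-bicarbonate cotransporter NBCe1 (SLC4A4), sodium-phosphate cotransporters and SLC13 and SLC26 carriers of sulfate and organic acids. The distal tubule uses the sodium-chloride cotransporter NCC (SLC12A3), the target of thiazide diuretics. A freshwater fish gains water and loses salt, and its kidney takes salt back from a dilute urine.

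All 48 genes were found in a gene table of a newer assembly, GRCz12tu. Of these, 46 matched by symbol and 2 by synonym, nherf1a for slc9a3r1 and slc26a6l1 for slc26a6l. The slc9a3r1 gene is caught by its name but encodes NHERF1, a scaffold that in mammals anchors transporters at the brush border, and slc34a2aas is an antisense RNA that neighbours slc34a2a. Of the 48, 34 passed the filter on low counts and were tested, 8 of 9 in slc9a, 5 of 8 in slc12a, 5 of 6 in slc4a, 4 of 7 in slc26a, 4 of 7 in slc8a, 4 of 5 in slc13a, 3 of 3 in slc20a and 1 of 3 in slc34a. The other 14 never had more than 17 reads in a library, and no more than 2 libraries held 10 reads or more of any of them. They were slc12a5b, slc12a10.1, slc12a10.2, slc13a4, slc26a3.1, slc26a3.2, slc26a4, slc34a2a, slc34a2aas, slc4a1b, slc8a2b, slc8a3, slc8a4a and slc9a2. The gene slc12a10.1 had no read in any library. No gene was counted under the symbols slc12a1, slc34a1a, slc34a1b, slc4a4b or slc26a6, so the counts say nothing about these. Levels are in CPM, a gene's counts relative to the library's scaled total, with no scaling to gene length, so they are compared between groups and never between genes.

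Gene counts were 15793475 to 18104535 per library, and 3 counts, the level that a count of 0 allows, corresponded to 0.157 to 0.199 CPM. The tissue label held up against markers: the proximal tubule genes lrp2a and slc5a2, the tubule cadherin gene cdh17, the distal chloride channel gene clcnk and the podocyte gene nphs1 had reads in all 12 libraries, while the distal marker trpm6 had none. The cebpd transcript was at 316 to 466 CPM in cebpd WT and 4.03 to 12.9 CPM in cebpd KO. It was at 212 to 333 CPM in CEN WT and 67.8 to 77.9 CPM in CEN KO. Within the groups, CEN WT replicate 1 and CEN KO replicate 1 were the lowest for 20 and 19 of the 34 tested members. Their median deviations from the group mean were -0.118 and -0.095 on the log2 scale. In the cebpd experiment 2 libraries lay further below for the transporters. cebpd WT replicate 3 was the lowest of its group for 28 of the 34 tested members, with a median deviation of -0.296 from the group mean on the log2 scale. Its mean log2 CPM over 9 erythroid markers was the highest of its group, at 9.26 beside 8.63 and 7.61. Over 9 podocyte markers it was the lowest, at 3.69 beside 4.15 and 4.25, and over 14 proximal tubule markers it was 7.78 beside 7.85 and 8.12. cebpd KO replicate 3 was the lowest of its group for 20, with 8 members more than 1 log2 unit below the group mean, and it had the lowest scaling factor, 0.835. Its mean log2 CPM over 14 proximal tubule markers was 7.82, beside 7.84 and 7.76 in the other cebpd KO libraries. Over 9 podocyte markers it was the lowest of its group, at 3.70 beside 4.08 and 4.31. The same held over 5 B cell markers, at 3.30 beside 4.05 and 4.03, and over 10 sodium pump genes, at 5.66 beside 6.17 and 6.06. The summed level of those sodium pump genes was instead highest in it, at 8445 CPM beside 7743 and 8139 CPM. It was the highest of its group over 12 multiciliated markers, at 3.38 beside 3.16 and 3.14. Over 10 interrenal markers it was also highest, at 4.05 beside 3.93 and 3.56. It was lowest over the macrophage markers, at 5.86 beside 6.03 and 6.07, and over the neutrophil markers, at 8.29 beside 8.34 and 8.54. The summed neutrophil level was instead highest in it, at 7641 CPM beside 6350 and 7132 CPM. The summed macrophage level in it, 846 CPM, lay between the others at 888 and 683 CPM, so the lists did not move together.

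**Figure D1:**
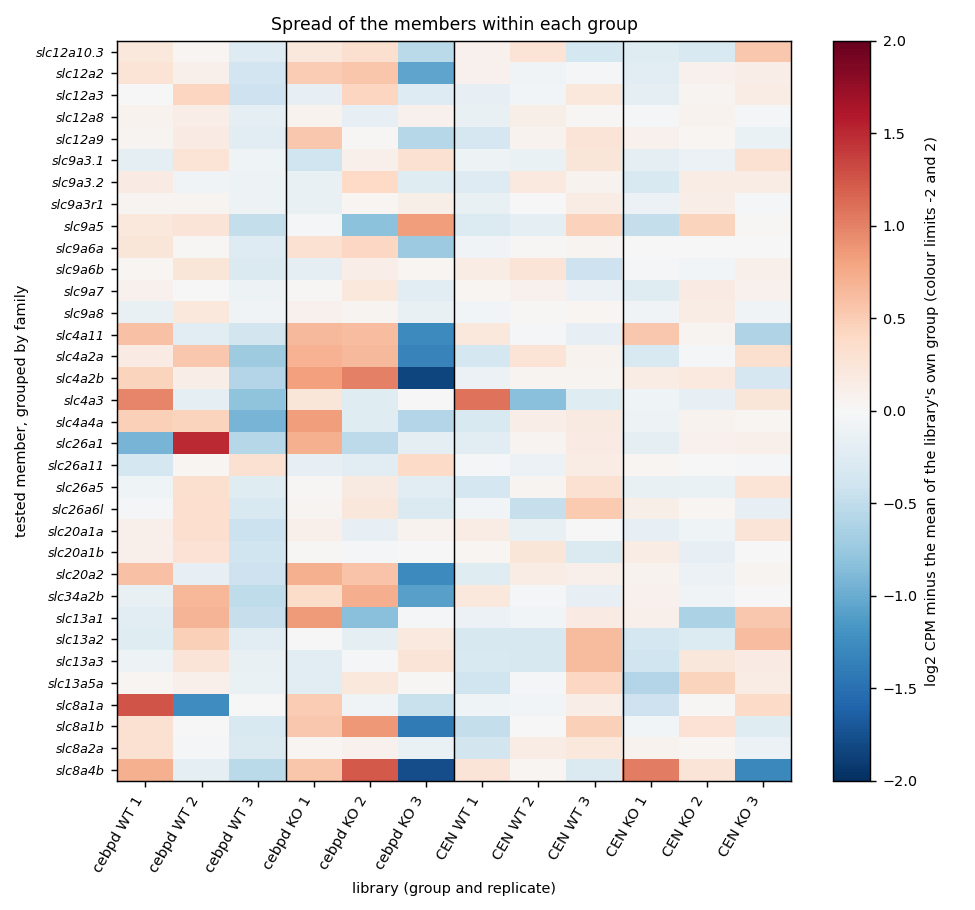
Heat map of the 34 tested members (rows, by family) in the 12 libraries (columns); colour is log2 CPM minus the mean of the library's own group, blue for lower and red for higher, with colour limits at -2 and 2. cebpd KO replicate 3 shows 8 members more than 1 log2 unit below its group, slc4a2b lowest at -1.84, and cebpd WT replicate 3 is the lowest of its group for 28 members.

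In the cebpd knockouts the transporters with the lowest p-values lay below the wild types: the dicarboxylate cotransporter gene slc13a2, the sodium-phosphate cotransporter genes slc20a1a and slc20a1b, the sodium-proton exchanger gene slc9a3.1 and the scaffold gene slc9a3r1. slc13a2 had the largest difference of these, 39.2 CPM ± 12 in cebpd WT against 11.3 CPM ± 1.49 in cebpd KO (SD, n = 3). None of the 34 tested members passed edgeR's quasi-likelihood test at an adjusted p of 0.05, against 0.0845% of all 11840 genes tested. limma-voom also called 0, and the DESeq2 Wald test called the 5 genes just named, beside 410 of all genes. At an unadjusted p under 0.05 there were 9 members, or 26.5% of those tested beside 13.4% of all genes. Of these 8 were lower, beside 6.8% of all genes, and 1 was higher, beside 6.58%. The groups did not overlap for 9 members, against 16% of all genes, with 8 lower (8.25% of all genes) and 1 higher (7.8%). Log2 fold changes were below 0 for 25 of the 34, with a median of -0.22, beside 51.4% of all genes and a median of -0.01. Without cebpd KO replicate 3 the members' median was 0.01 and slc13a2 alone of the members passed, beside 233 of all genes. In these bulk samples, fewer tubule cells and less RNA per cell cannot be told apart.

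Other cell markers also differed in this comparison, but no gene of the lists below passed edgeR's test. At an unadjusted p under 0.05, 6.58% of all genes were higher and 6.8% lower. Of 11 tested neutrophil markers 8 were higher at an unadjusted p under 0.05, and the list's summed level was 6350 to 7641 CPM in cebpd KO against 3511 to 4609 CPM in cebpd WT. For 14 tested proximal tubule markers the median log2 fold change was -0.09, with 1 higher and 1 lower at that threshold and summed levels of 8915 to 10020 against 9700 to 12510 CPM, while aqp8b of that list was at 0 in 8 libraries. That list also holds the tubule cadherin gene cdh17, at a mean of 3354 CPM over all libraries, so its summed level is not of proximal genes alone. For 15 tested distal tubule markers the median was -0.13, with summed levels of 575 to 772 against 677 to 917 CPM. Of 10 interrenal (steroid-producing) markers 4 were lower at an unadjusted p under 0.05, with a median of -0.49, and of 12 markers of multiciliated cells 3 were lower, with a median of -0.19. Of 11 skeletal muscle markers 1 was lower, with a median of -1.41 and summed levels of 13.8 to 50 against 16 to 159 CPM. All 8 tested macrophage and all 5 tested B cell markers had log2 fold changes above 0, with medians of 0.47 and 0.35. At the unadjusted threshold 2 and 1 of them were higher. The podocyte and erythroid lists had medians of -0.05 and -0.18, with 0 genes past that threshold. The part of these cell types in the transporter values was not tested.

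In the CEN knockouts the same carriers did not lie in the same direction, apart from the scaffold gene. slc9a3.1, slc20a1a and the Na-K-2Cl cotransporter gene slc12a2 lay above their wild types without overlap, and slc9a3r1 lay below. None of the 34 members passed edgeR's test, against 0.00845% of all genes, and limma-voom called 0. The DESeq2 Wald test called 1, slc9a3r1, at an adjusted p of 0.0293, beside 137 of all genes. At an unadjusted p under 0.05 there were 6 members, or 17.6% beside 9.86% of all genes. Of these 4 were higher, beside 5.99% of all genes, and 2 were lower, beside 3.88%. The groups did not overlap for 12 members, against 19.4% of all genes, with 6 higher (9.63% of all genes) and 6 lower (9.77%). The median log2 fold change was 0.08, beside 0.00 over all genes. The proximal tubule list had a median of 0.21 and summed levels of 10010 to 13300 CPM in CEN KO against 9331 to 13090 CPM in CEN WT. Of 11 skeletal muscle markers 5 were higher in CEN KO at an unadjusted p under 0.05, and the list reached 777 CPM in the highest CEN KO library against at most 92.5 CPM in CEN WT. Of 10 interrenal markers 1 was higher at that threshold, with a median of 0.47. The neutrophil and multiciliated lists had medians of -0.06 and 0.00. No marker of these lists passed edgeR's test in CEN KO. The part of these lists in the transporter values was not tested.

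**Figure D2:**
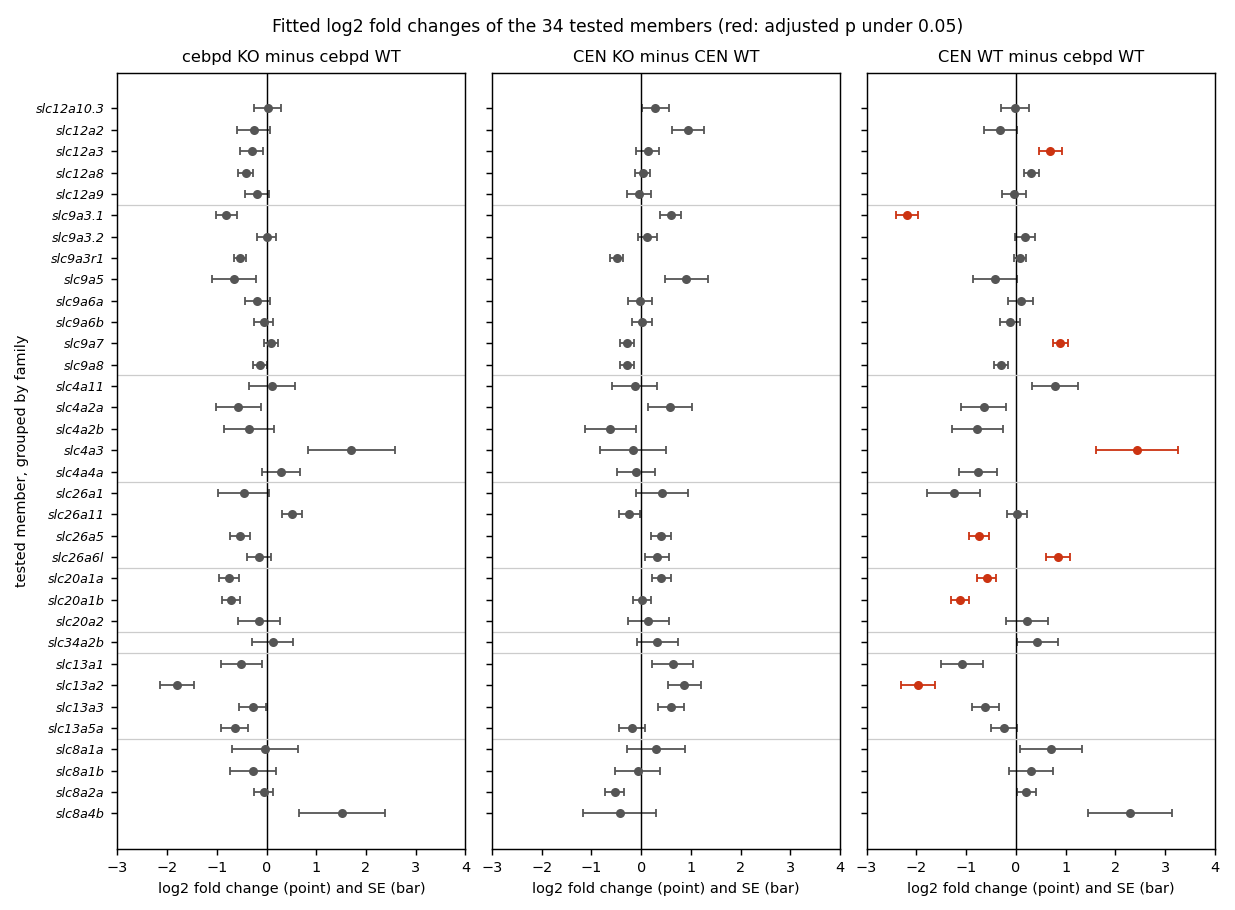
Fitted log2 fold change (point) and SE (bar) of the 34 tested members, by family, in the 3 comparisons named above the panels; red marks an adjusted p under 0.05 over all genes. No member is red in either knockout comparison, and 9 are red between the wild types of the 2 experiments, from slc9a3.1 at -2.18 to slc4a3 at 2.44. slc4a3 has few reads and passed the filter through the CEN libraries alone.

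The cebpd effect and the CEN effect were also compared directly. For 25 of the 34 members the cebpd effect lay below the CEN effect, beside 51% of all genes, with a median difference of -0.28 beside -0.01 over all genes. With each library left out the members' median difference ran from -0.50 to -0.06, so its size depended on single libraries. None passed edgeR's test, against 0.0422% of all genes, and limma-voom called 0. The DESeq2 Wald test called 3, slc13a2, slc20a1a and slc9a3.1, beside 344 of all genes. Without CEN WT replicate 3 edgeR called 1, slc13a2, beside 10 of all genes. At an unadjusted p under 0.05 there were 9 members beside 12.9% of all genes, 8 with a lower cebpd effect, beside 7.23%, and 1 with a higher one, beside 5.69%. Of 14 tested proximal tubule markers edgeR called 1, ggt1a, at -2.32 ± 0.32 (SE, adjusted p 0.0244). At the unadjusted threshold 8 of 11 neutrophil markers had a higher cebpd effect. A lower one was held by 7 of 11 skeletal muscle and 4 of 10 interrenal markers. The part of these lists in the transporter values was not tested.

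Among the sodium-chloride cotransporters, the NCC gene slc12a3 separated the experiments and not the genotypes. It stood at 640, 860 and 480 CPM in cebpd WT and at 468, 706 and 440 CPM in cebpd KO. In CEN WT it stood at 944, 1024 and 1234 CPM and in CEN KO at 1011, 1203 and 1287 CPM. Every library of the CEN experiment lay above every library of the cebpd experiment, and genotypes overlapped within each. How many of all genes separate every library of the experiments in this way was not counted. Between the wild types alone, a looser condition, 2702 of 11840 genes lay higher and 2792 lower in CEN WT without overlap. Of the 34 members 6 lay higher and 7 lower in that way. The log2 fold change was -0.30 ± 0.23 (SE, adjusted p 0.653) in cebpd KO and 0.13 ± 0.23 (SE, adjusted p 0.925) in CEN KO. slc12a2, which encodes the Na-K-2Cl cotransporter that many cells use to take up chloride, was at 15.7, 14.2 and 14.6 CPM in CEN WT and 24.5, 30 and 31 CPM in CEN KO. All CEN knockouts lay above all CEN wild types, a log2 fold change of 0.94 ± 0.33 (SE, adjusted p 0.343). In the cebpd libraries slc12a2 was at 21.9, 19.5 and 13.9 CPM in WT and 19.5, 20 and 6.5 CPM in KO, groups that overlap. Its cebpd value, -0.26 ± 0.33 (SE), became 0.12 without cebpd KO replicate 3.

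The slc12a10 genes lie on the same chromosome in the newer table, slc12a10.3 next to slc12a10.1, and encode relatives of NCC. Only slc12a10.3 was expressed above the filter, at 104 to 257 CPM over the 12 libraries, and its group means were 153, 155, 151 and 183 CPM in cebpd WT, cebpd KO, CEN WT and CEN KO. Its groups overlapped in both experiments. slc12a10.2 had 2 to 8 reads per library and slc12a10.1 none, and how reads were divided among such close copies is not given in the labels. Of the other slc12a genes, slc12a8 was at 15.2, 15.9 and 12.6 CPM in cebpd WT and 11.4, 9.68 and 11.6 CPM in cebpd KO. The cebpd knockouts lay below the wild types without overlap, at -0.42 ± 0.15 (SE) on the log2 scale, with an adjusted p of 0.236. In CEN KO it was 0.03 ± 0.15 (SE), and slc12a9 ranged from 33 to 71.3 CPM with overlapping groups.

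Among the sodium-proton exchangers, slc9a3.1, one of a pair of zebrafish genes for NHE3, took a different level in each group. It was at 917, 1275 and 989 CPM in cebpd WT and 449, 639 and 732 CPM in cebpd KO. It was at 216, 210 and 274 CPM in CEN WT and 309, 320 and 429 CPM in CEN KO. The knockouts lay below their wild types in the cebpd experiment and above them in the CEN experiment, without overlap in either. The log2 fold changes were -0.81 ± 0.21 (SE, adjusted p 0.124) in cebpd KO and 0.60 ± 0.21 (SE, adjusted p 0.344) in CEN KO. The cebpd effect minus the CEN effect was -1.40 ± 0.30 (SE, adjusted p 0.104 by edgeR), so the difference missed the threshold. slc9a3.2, its partner in the pair and near neighbour on the chromosome in the newer table, did not share this pattern of levels. It had group means of 189, 189, 215 and 234 CPM in cebpd WT, cebpd KO, CEN WT and CEN KO, with overlapping groups in both experiments.

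The NHERF1 scaffold gene slc9a3r1 was the 1 member whose knockouts lay below their wild types without overlap in both experiments, a pattern held by 0.726% of all genes tested. It was at 172, 171 and 153 CPM in cebpd WT and 103, 117 and 123 CPM in cebpd KO. It was at 158, 175 and 194 CPM in CEN WT and 115, 137 and 122 CPM in CEN KO. The highest knockout of the 6, at 137 CPM, lay below the lowest wild type of the 6, at 153 CPM. The log2 fold changes were -0.53 ± 0.13 (SE, adjusted p 0.1) in cebpd KO and -0.49 ± 0.13 (SE, adjusted p 0.229) in CEN KO, and they differed by -0.04 ± 0.18 (SE, adjusted p 0.957). The mean of both effects, each against its own wild types, was -0.51 ± 0.09 (SE), the lowest p of the members in that contrast, with an adjusted p of 0.0861. In that contrast 0 members passed edgeR's test, against 0.0591% of all genes, with 3 at an unadjusted p under 0.05 (all lower, beside 4.9% of all genes). The DESeq2 Wald test called 1, beside 177 of all genes, and limma-voom 0. slc9a3r1 passed there at 0.0437 with the filter of 10 CPM in 3 libraries and at 8.7e-05 with DESeq2. pdzk1, for a related brush border scaffold, was -0.09 ± 0.19 (SE) in cebpd KO and -0.18 ± 0.19 (SE) in CEN KO, so its values were smaller than their error.

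The sodium-proton exchanger genes slc9a6a, slc9a6b, slc9a7 and slc9a8 included 2 that lay below their wild types in CEN KO without overlap, slc9a7 and slc9a8. This pattern was held by 9.77% of all genes. The log2 fold changes there were -0.29 ± 0.14 for each (SE, adjusted p 0.547 for each). slc9a7 was at 40.5 to 54.8 CPM in the 6 cebpd libraries and 57.5 to 88.5 CPM in the 6 CEN libraries, which do not overlap. Between the wild types alone, a looser condition, 2702 of 11840 genes lay higher in CEN WT without overlap. The share over all libraries of both experiments was not counted. Within CEN, slc9a7 was at 57.5, 76.1 and 72.2 CPM in KO, all under the lowest CEN WT library at 77 CPM. slc9a8 was at 14.6, 17.1 and 14.7 CPM in CEN KO against 18.1 to 19.3 CPM in CEN WT. Over all 12 libraries slc9a6a reached at most 23.9 CPM, with its lowest value in cebpd KO replicate 3, and slc9a6b from 11.9 to 20.7 CPM. slc9a5, an exchanger of the cell surface, was at 0.699 to 4.34 CPM.

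**Figure D3:**
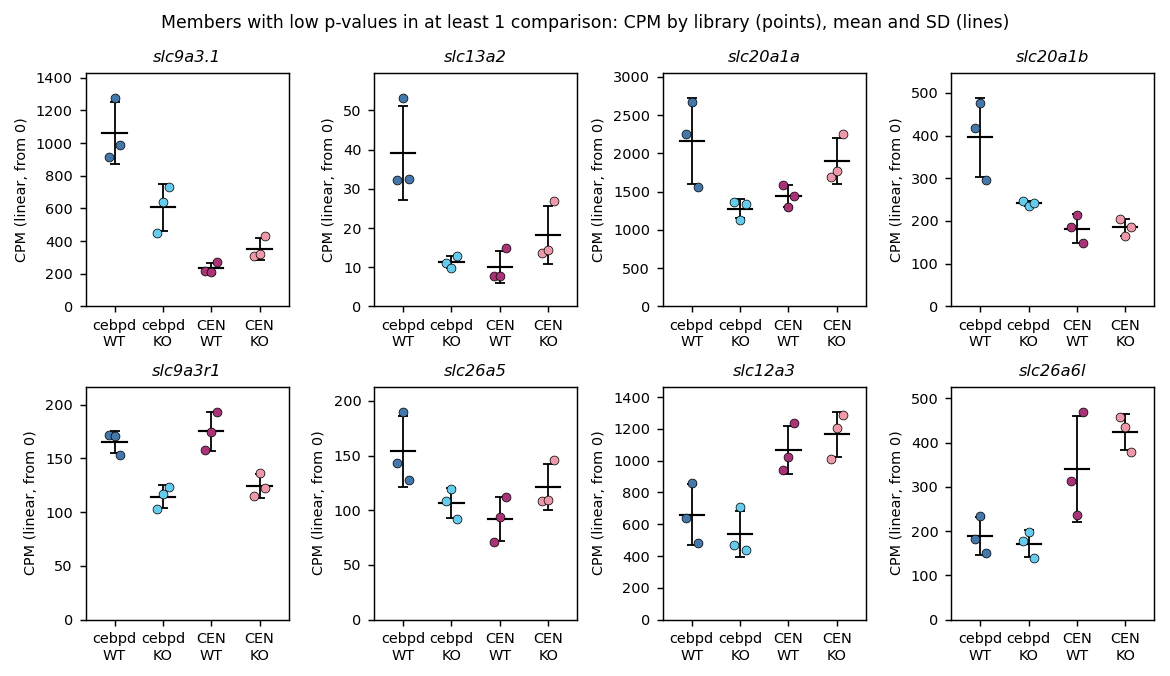
CPM by library (points), group mean (horizontal line) and SD (bar) for 8 members, on linear axes from 0, with the 4 groups side by side in each panel. slc9a3r1 is lower in both knockouts than in any wild type, slc13a2 and slc20a1b are highest in cebpd WT, and slc12a3 is higher in all CEN libraries than in all cebpd libraries.

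In the slc4a family, genotypes overlapped in the cebpd experiment for all tested genes except slc4a3. slc4a2a, for a chloride-bicarbonate exchanger of the AE2 type, was at 1046, 1350 and 569 CPM in cebpd WT and 905, 876 and 221 CPM in cebpd KO. In the CEN experiment it was at 483, 753 and 654 CPM in WT and 755, 917 and 1162 CPM in KO. The cebpd groups overlapped, the lowest value of each belonging to its replicate 3, and the CEN knockouts lay above the CEN wild types by a narrow margin. The log2 fold changes were -0.57 ± 0.45 (SE, adjusted p 0.653) and 0.58 ± 0.45 (SE, adjusted p 0.726), and without cebpd KO replicate 3 the cebpd value was -0.13. Its paralog slc4a2b was at 76.6, 62 and 37.5 CPM in cebpd WT and 60.1, 68.5 and 9.36 CPM in cebpd KO. In CEN WT it was at 31.6, 35.7 and 35.6 CPM and in CEN KO at 24.2, 25.1 and 17.3 CPM. That was a log2 fold change of -0.63 ± 0.51 (SE, adjusted p 0.744). The paralogs lay on opposite sides of their wild types in CEN KO, and neither difference passed.

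slc4a4a, a gene for the sodium-bicarbonate cotransporter NBCe1, was at 190, 186 and 71.2 CPM in cebpd WT and 294, 140 and 111 CPM in cebpd KO, spreads that overlap widely. It lay between 70.8 and 98.2 CPM in all CEN libraries. Its log2 fold changes were 0.29 ± 0.38 (SE, adjusted p 0.813) in cebpd KO and -0.11 ± 0.38 (SE, adjusted p 0.968) in CEN KO. The sparsely counted slc4a11 and slc4a3 reached at most 8.21 and 1.32 CPM. slc4a3, for an anion exchanger of the AE3 type, was at 0.281, 0.0634 and 0 CPM in cebpd WT, of which the last pair lay under the 3-count level. Its cebpd KO libraries held 8, 6 and 6 reads, with an adjusted p of 0.437 by edgeR.

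Among the slc26a anion exchangers, slc26a5 and slc26a6l differed in opposite directions between the wild types of the experiments, slc26a5 being lower and slc26a6l higher in CEN WT. slc26a5, a relative of the mammalian outer hair cell protein prestin, was at 143, 190 and 128 CPM in cebpd WT and 108, 120 and 91.7 CPM in cebpd KO. It was at 71, 93.7 and 112 CPM in CEN WT and 108, 109 and 146 CPM in CEN KO. The cebpd knockouts lay below their wild types without overlap, at -0.53 ± 0.20 (SE, adjusted p 0.273), and the CEN groups overlapped, at 0.39 ± 0.20 (SE, adjusted p 0.557). slc26a6l, a relative of the oxalate and chloride exchanger SLC26A6, was at 140 to 235 CPM in the cebpd libraries and 236 to 470 CPM in the CEN libraries. slc26a1, for a sulfate exchanger, reached 726 CPM in cebpd WT replicate 2 while the other 11 libraries lay at 123 to 384 CPM, so its mean in cebpd WT, 345 CPM ± 330 (SD, n = 3), rests on that library. slc26a11 was at 11.3 to 26.9 CPM and was the 1 member higher in cebpd KO at an unadjusted p under 0.05, with overlapping cebpd groups. In CEN KO slc26a11 lay below its wild types without overlap, at -0.24 ± 0.20 (SE, adjusted p 0.758). slc26a1 lay above them without overlap, at 0.42 ± 0.52 (SE, adjusted p 0.863). These patterns were held by 9.77% and 9.63% of all genes.

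**Figure D4:**
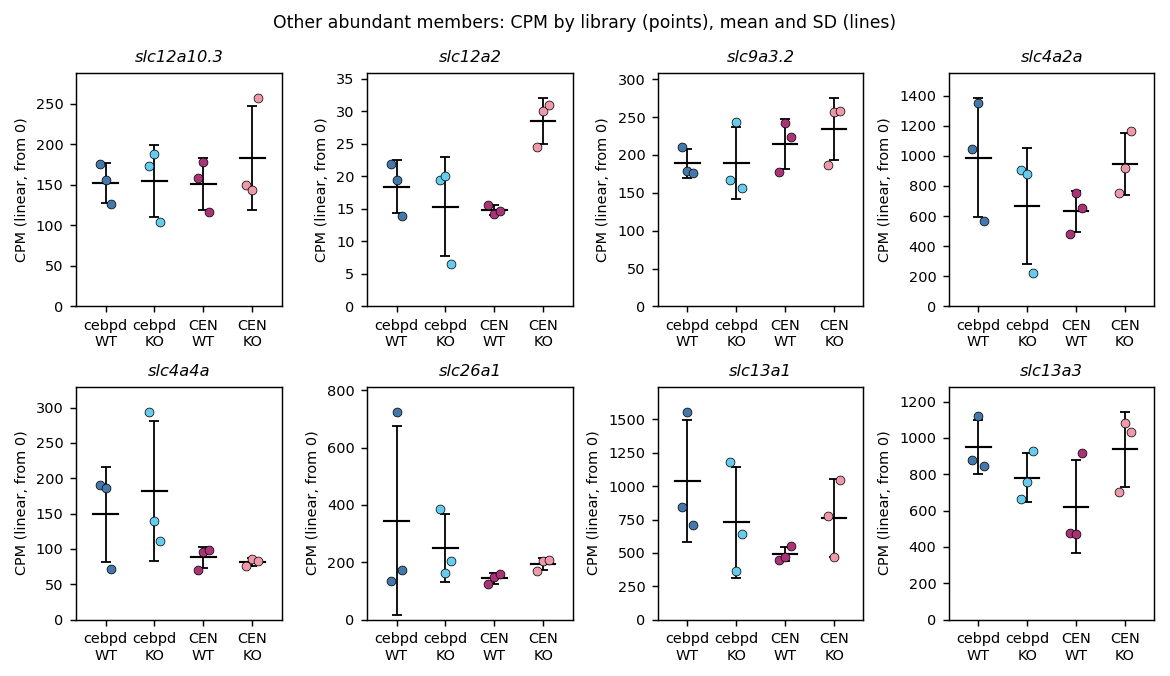
CPM by library (points), group mean (horizontal line) and SD (bar) for 8 further members, on linear axes from 0. slc12a2 is higher in the 3 CEN knockouts than in the 3 CEN wild types, slc9a3.2 overlaps in all groups, and slc26a1 has 1 library at 726 CPM.

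Of the sodium-phosphate cotransporters, all 3 slc20a genes were tested, whose mammalian members PiT-1 and PiT-2 supply phosphate to most cells. slc20a1a was at 2257, 2667 and 1561 CPM in cebpd WT and 1365, 1131 and 1336 CPM in cebpd KO. It was at 1582, 1295 and 1442 CPM in CEN WT and 1694, 1773 and 2248 CPM in CEN KO. As with slc9a3.1, the knockouts lay below their wild types in the cebpd experiment and above them in the CEN experiment without overlap, a pattern of 2 of the 34 members and 1.19% of all genes. The log2 fold changes were -0.76 ± 0.20 (SE, adjusted p 0.121) and 0.40 ± 0.20 (SE, adjusted p 0.54), and the effects differed by -1.16 ± 0.28 (SE, adjusted p 0.119). slc20a1b was at 417, 475 and 295 CPM in cebpd WT and 246, 236 and 242 CPM in cebpd KO. In the CEN experiment it was at 186, 213 and 148 CPM in WT and 205, 164 and 185 CPM in KO. Its cebpd wild types lay above all 9 other libraries, and its log2 fold changes were -0.71 ± 0.18 (SE, adjusted p 0.119) in cebpd KO and 0.02 ± 0.18 (SE, adjusted p 0.99) in CEN KO. slc20a2 was at 1.66 to 7.93 CPM.

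Of the slc34a genes, whose mammalian members reabsorb phosphate in the proximal tubule and gut, slc34a2b alone was tested and lay at 1.19 to 5.05 CPM. With no slc34a1a or slc34a1b in the counts, these levels do not describe slc34a phosphate transport as a whole. The lowest CEN KO library of slc34a2b, at 4.51 CPM, lay above its highest CEN WT library, at 4.39 CPM. The log2 fold change was 0.33 ± 0.41 (SE, adjusted p 0.863). slc34a2a had 0 to 5 reads per library and its antisense RNA slc34a2aas the same range of 0 to 5. Whether the counting used strand is not given in the labels, so where the pair overlaps its reads cannot be told apart.

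Among the sodium-coupled carriers of sulfate and organic acids, slc13a2 set cebpd WT apart from the other 3 groups. The gene encodes a dicarboxylate cotransporter that in mammals recovers citrate and succinate in the proximal tubule. It was at 32.2, 53.1 and 32.4 CPM in cebpd WT and 11.1, 9.84 and 12.8 CPM in cebpd KO. It was at 7.63, 7.64 and 14.8 CPM in CEN WT and 13.7, 14.5 and 26.8 CPM in CEN KO. The 3 cebpd wild types lay above all other libraries, and the CEN groups overlapped. The log2 fold change was -1.80 ± 0.33 (SE, adjusted p 0.0557) in cebpd KO, and 0.87 ± 0.33 (SE, adjusted p 0.401) in CEN KO. The effects differed by -2.67 ± 0.47 (SE, adjusted p 0.104). The cebpd difference passed at 0.0412 with the filter of 10 CPM in 3 libraries, at 3.7e-05 with DESeq2 and at 0.0444 without cebpd KO replicate 3, and its adjusted p over all alternatives ran from 3.7e-05 to 0.228.

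The other slc13a genes varied more within groups. slc13a1, for the sodium-sulfate cotransporter, ranged from 710 to 1559 CPM in cebpd WT and from 367 to 1178 CPM in cebpd KO. It lay at 450 to 549 CPM in CEN WT and 466 to 1048 CPM in CEN KO, so genotypes overlapped in both experiments. slc13a3, for a second dicarboxylate cotransporter, was at 476, 470 and 916 CPM in CEN WT and 701, 1083 and 1031 CPM in CEN KO, groups that overlap, with a log2 fold change of 0.60 ± 0.27 (SE, adjusted p 0.499). In cebpd KO it was -0.28 ± 0.27 (SE, adjusted p 0.724). slc13a5a, for a citrate cotransporter, was at 24.7, 25.7 and 21.8 CPM in cebpd WT and 13, 17.8 and 15.5 CPM in cebpd KO, without overlap. Its log2 fold change there was -0.64 ± 0.26 (SE, adjusted p 0.308). In the CEN experiment slc13a5a overlapped, with group means of 20.5 and 18 CPM, and its mean effect over both experiments was -0.42 ± 0.19 (SE, adjusted p 0.46).

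The sodium-calcium exchangers of the slc8a family, which in mammals extrude calcium, had 4 of 7 genes tested. slc8a2a was at 14.3, 20.4 and 21.1 CPM in CEN WT and 13.6, 13.2 and 11.9 CPM in CEN KO. The CEN knockouts lay below the wild types without overlap, at -0.53 ± 0.19 (SE, adjusted p 0.373). Its cebpd groups overlapped, at -0.06 ± 0.19 (SE, adjusted p 0.941). slc8a1b was at 1.26 to 8.82 CPM, and slc8a1a and slc8a4b at no more than 1.15 and 1.66 CPM.

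More transporters passed the test between the wild types of the 2 experiments than in either knockout comparison, among them slc9a3.1, slc13a2 and slc20a1b, all lower in CEN WT. Both groups carry the label wild type and the same strain and treatment, and experiment and any batch cannot be told apart. Of the 34 members 9 passed edgeR's test, or 26.5% against 25% of all genes, so the share of transporters that changed is near that of all genes. slc9a3.1 was lower in CEN WT than in cebpd WT by a log2 fold change of -2.18 ± 0.22 (SE, adjusted p 0.000164), a 4.54-fold difference. slc13a2 was lower by -1.97 ± 0.34 (SE, adjusted p 0.00202) and slc20a1b by -1.12 ± 0.18 (SE, adjusted p 0.00171). slc26a5 was lower by -0.74 ± 0.20 (SE, adjusted p 0.0213) and slc20a1a by -0.59 ± 0.20 (SE, adjusted p 0.0474). The other 4 were higher in CEN WT, slc9a7 by 0.90 ± 0.14 (SE, adjusted p 0.00151), slc26a6l by 0.84 ± 0.24 (SE, adjusted p 0.0265), slc12a3 by 0.69 ± 0.23 (SE, adjusted p 0.0478) and the sparsely counted slc4a3 by 2.44 ± 0.82 (SE, adjusted p 0.0476). slc4a3 had 24, 5 and 8 reads in CEN WT and 5, 1 and 0 in cebpd WT, groups that overlap. Only CEN libraries held 10 reads or more of it, so it passed the filter through the experiment where it was called higher. Its call, counted in the 9, is therefore not independent of the filter.

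These 9 calls were unequally firm. slc9a3.1, slc13a2, slc20a1b and slc9a7 passed in all 18 alternatives run for this comparison, whereas slc26a5 passed in 15, slc26a6l in 14, slc12a3 in 9, slc4a3 in 7 of the 17 that gave a value and slc20a1a in 6. Without CEN WT replicate 1, 4 members and 1630 of all genes passed, beside 2961 of all genes with every library. The comparison shares the cebpd wild types with the cebpd knockout comparison and the CEN wild types with the CEN knockout comparison. The values of a gene in it are therefore not independent of those in either knockout comparison. Of the 14 tested proximal tubule markers 5 passed between the wild types, as did 4 of the 15 tested distal ones, and the proximal list's summed levels overlapped, at 9331 to 13090 CPM in CEN WT and 9700 to 12510 CPM in cebpd WT. The part of such markers in the transporter values was not tested.

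Genes that work with these carriers were followed as 5 lists. They began with sodium pump subunits, chloride and potassium channels, and SGK kinases with other salt transport regulators (oxsr1, cul3 and cab39 genes and nr3c2). Next came carbonic anhydrases and proton pumps, a list that also held ahcyl1 and ahcyl2, and then regulators of phosphate. In cebpd KO 0 of the lists' 10, 6, 11, 9 and 13 tested genes passed edgeR's test, and 0 passed in CEN KO. At an unadjusted p under 0.05 the counts in cebpd KO were 1, 1, 2, 2 and 1, beside 13.4% of all genes. The 2 of the carbonic anhydrase and proton pump list were ahcyl1 and ahcyl2, at -0.46 ± 0.17 and -0.61 ± 0.25 (SE, adjusted p 0.251 and 0.31). No carbonic anhydrase or proton pump gene of that list was among them. In CEN KO the counts were 2, 0, 2, 2 and 2, beside 9.86% of all genes. Median log2 fold changes in cebpd KO were -0.27, -0.71, -0.16, 0.00 and -0.32, and in CEN KO 0.10, 0.47, 0.02, 0.04 and 0.10. The kinase gene sgk3 had the lowest p in cebpd KO, at 0.54 ± 0.13 (SE, adjusted p 0.103), and was 0.33 ± 0.13 (SE, adjusted p 0.418) in CEN KO. The sodium pump gene atp1a1b had the lowest p in CEN KO, at 0.94 ± 0.22 (SE, adjusted p 0.181), and was -0.14 ± 0.22 (SE, adjusted p 0.837) in cebpd KO. sgk2b was 1.17 ± 0.27 (SE, adjusted p 0.181) in CEN KO and -0.42 ± 0.26 (SE, adjusted p 0.541) in cebpd KO. The sodium pump subunit gene atp1b1a was -0.46 ± 0.16 (SE, adjusted p 0.21) in cebpd KO and 0.03 ± 0.16 (SE, adjusted p 0.98) in CEN KO.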

How the data were processed

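The authors deposited raw read counts per gene symbol, 1 table per library, not normalized. The tools named are TopHat2 2.1.1, Trim Galore 0.6.4 and HTSeq, with build danRer10, per the submitters' processing notes. What each did, the annotation and use of strand are not given in the labels, and near-identical or overlapping genes may share or lose reads. Each table held 14781 genes; 5 summary lines entered neither library sizes nor tests (32.1 to 38.5% of reads lay in no gene and 1.32 to 3.99% were ambiguous).

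The analysis used edgeR 4.0.16, DESeq2 1.42.0 and limma 3.58.1 under R 4.3.3. filterByExpr with a minimum count of 10 kept 11840 genes, scaled by TMM. The main test, edgeR's quasi-likelihood test, was fitted over all 12 libraries with 1 term per group (8 residual degrees of freedom). P-values are two-sided and Benjamini-Hochberg adjusted over all genes tested, with a threshold of 0.05. SE is the size of a log2 fold change divided by the square root of F. Floors cover counting error only. Contrasts were each knockout against its wild types, their difference, their mean, and CEN WT against cebpd WT.

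Named genes were members past the threshold in a contrast, the 6 of lowest p in each knockout contrast and 3 in the others, the 2 of highest mean CPM per family, and those of a fixed set of renal transporters that were in the counts. Others are named for their groups or for family context after their values were seen. Members, lists and tests were chosen with earlier results of these data known. Alternatives were other scalings, filters, tests, fits and left-out libraries. Protein and promoter sequences were not used here.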

Additional observations from a re-analysis of the deposited data

Results flagged for a closer look

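In 2 members every knockout library lay below the wild types in the cebpd experiment and above them in the CEN experiment. For slc9a3.1 the cebpd effect minus the CEN effect was -1.40 on the log2 scale, and the test of this difference missed the threshold with an adjusted p of 0.104 by edgeR. It passed with the DESeq2 Wald test, at 0.00161. For slc20a1a the difference was -1.16, with an adjusted p of 0.119 by edgeR and 0.00503 by DESeq2. The wild types of the 2 experiments started from different levels of both genes, 1060 and 233 CPM for slc9a3.1 and 2161 and 1440 CPM for slc20a1a, and the part of that difference was not tested.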

How the results depend on the processing

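The number of members past the threshold depended on the test and filter. For the cebpd comparison it was 0 by the main test, 1 with the filter of 10 CPM in 3 libraries, 5 with the DESeq2 Wald test, 2 with the replicate block, and 0 to 1 with each library left out. Over all genes the same settings called 63, 410 and 197 for cebpd, 1 with the 6 libraries of the experiment and 1 to 233 with each library left out (233 without cebpd KO replicate 3), beside 10 by the main test. For CEN it was 1 with DESeq2, which called 137 genes in all, beside 1 by the main test, 5 by limma-voom, 11 with the block and 1 to 7 with each library left out. For the difference of effects it was 0 by the main test, 3 with DESeq2, 3 with the replicate block and 0 to 1 with each library left out, while all genes gave 5 by the main test, 344 with DESeq2 and 129 with the block. For the mean of both effects it was 1 with the filter of 10 CPM in 3 libraries and 1 with DESeq2, beside 10 and 177 of all genes and 7 by the main test. Between the wild types it was 9 by the main test and 4 to 11 with each library left out, beside 2961 and 1630 to 4013 of all genes. The members' median in the cebpd comparison ran from -0.42 to 0.01 with each library left out, reaching 0.0101 without cebpd KO replicate 3. The other 4 medians moved by less than the spread of the libraries' mean member level (0.229, SD). Several small differences crossed 0 when 1 library was left out: slc12a2, slc8a2a and slc4a4a in cebpd KO ran from -0.50 to 0.12, -0.19 to 0.11 and -0.25 to 0.57, and slc20a1b and slc12a8 in CEN KO from -0.11 to 0.16 and -0.0446 to 0.10. The causes were not tested.

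Whether the replicate numbers pair the samples was not settled by the counts. The deviations of same-numbered libraries correlated at 0.302, -0.012 and 0.367 in the cebpd experiment and 0.195, -0.024 and 0.164 in CEN. Some libraries correlated best with their own number and others did not, and the main test did not use the numbers. With the replicate block slc13a2 and slc9a3.1 passed in the cebpd comparison, at 0.0292 and 0.0397, and, with slc26a5, in the difference of effects. Genes near the 3-count level, such as slc4a3, are limited by depth.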
